A study of Mus musculus with 16 samples.

Results

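Tm9sf2, Sec23a, Fam20a, Xbp1 and Alg5, genes of the secretory and endosomal pathway, were followed across the series. Their probes were taken by gene symbol from the authors' deposited comparison tables, which name 840 genes, and this gave 6 probes for 5 genes among the 25697 probes of the value table. All 6 stand in the table of the Musashi-2 comparison and 0 in that of the Musashi-1 comparison. The genes were thus chosen by their fold and p-value in the Musashi-2 contrast, and their values in it are given as a description without a test. No probe was taken through the Musashi-1 table, and that contrast was tested. Because the genes were chosen with earlier results of these data known, its p-values may not be independent of that choice.

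Whole-testis RNA of 3-month-old B6xCBA mice was hybridised to 16 Illumina bead arrays, 4 in each of 4 groups. TgMsi1 mice carry a transgene that expresses Musashi-1 specifically in the testis, and TgMsi2 mice one that expresses Musashi-2 there. Each line has wild-type littermates of its own, Wt(TgMsi1) and Wt(TgMsi2). Both proteins bind RNA and control how target mRNAs are translated and how long they last. The promoter of each transgene, the number of founder lines and any pooling of animals go unstated in the sources used here, as does whether each replicate is a mouse of its own. If they are not, the p-values measure a spread that may be technical. With bead arrays there is no read depth, and precision is limited by how many arrays each group has.

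Proteins bound for the cell surface, for secretion or for endosomes enter the endoplasmic reticulum, where they are folded and N-glycosylated, and leave it in vesicles with a COPII coat. When unfolded protein accumulates, the unfolded protein response raises the capacity of the endoplasmic reticulum. In the testis, round spermatids build the acrosome from Golgi-derived vesicles, and Sertoli and Leydig cells secrete proteins and steroids. Of the genes described here, Sec23a encodes an inner coat subunit of COPII vesicles. Alg5 makes the lipid-linked glucose donor for N-glycans, and Xbp1 is a transcription factor of the unfolded protein response whose mRNA is spliced by the sensor IRE1. Fam20a encodes a pseudokinase that activates the secretory pathway kinase Fam20c, and Tm9sf2 a multi-pass membrane protein of endosomes and the Golgi.

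Each probe is 50 bases long. The Sec23a probe and the Fam20a probe at base 1771 of its transcript are printed here. The Sec23a probe has the largest Musashi-2 difference of the 6 over all arrays. This Fam20a probe has the smallest unadjusted limma p of the 6 in the Musashi-1 comparison (0.000448), though its limma adjusted p was 0.211. Both are given 5′ to 3′ in the orientation of the deposited table, with no part marked.
Sec23a: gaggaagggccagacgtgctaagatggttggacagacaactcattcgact
Fam20a: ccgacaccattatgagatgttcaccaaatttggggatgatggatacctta
The Sec23a probe lies on the minus strand of chromosome 12 (60079449 to 60079498). The Fam20a probes lie on the minus strand of chromosome 11, at 109536441 to 109536490 (base 1771) and at 109534332 to 109534381 (base 2399). The Xbp1 probe lies on the plus strand of chromosome 11 (5425700 to 5425749) and the Tm9sf2 probe on the plus strand of chromosome 14 (122558647 to 122558696). The Alg5 probe has no coordinates in the table, and its gene lies on chromosome 3. These coordinates are the deposited ones, their build is not named, and 0 of the 5 positions fall inside the RefSeq gene of GRCm38.p6, so they were not read against that build. The deposited tables do not say whether the probes are coding or untranslated. The array design holds 3 probes for Tm9sf2, 3 for Alg5, 2 for Fam20a, and 1 each for Sec23a and Xbp1. The other 2 probes of Tm9sf2 and the other 2 of Alg5 cannot be tied to a row of the value table and were not analysed here. Neither deposited table holds them, and that of TgMsi2 holds 700 probes where 706 pass its limits of fold and p. Any of them in the value table would mostly have missed those limits. Each of these genes is thus described here by 1 probe of 3.

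The deposited log2 values had a median of 7.83 over all arrays, and no value is at 0 (lowest 7.37), so differences of dim probes may be understated. Within a group, r between arrays over all probes was between 0.988 and 0.996. The arrays carried testis markers, with the spermatid enzyme gene Gapdhs at a mean of 14.00 and the Leydig hormone gene Insl3 at 13.02 in Wt(TgMsi2). On the first principal component of all probes, which held 40.9% of the variance, TgMsi2 replicates 1 and 3 lay at 35.3 and 30.2 and replicates 2 and 4 at 13.6 and 9.2. The score of TgMsi1 replicate 2 was 10.7, and the remaining arrays had scores of -16.4 to -3.5. TgMsi2 replicates 1 and 3 and TgMsi1 replicate 2 thus stood apart from the rest of their groups, and values without them are given below where they matter.

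Over all arrays Sec23a had the largest TgMsi2 difference of the 5 genes; without TgMsi2 replicates 1 and 3 it was -1.12, beside -1.16 for Fam20a at base 2399. Its log2 signal was 9.06, 9.73, 9.36 and 9.97 on the TgMsi2 arrays (replicates 1 to 4), and 10.88, 11.12, 10.82 and 11.06 on those of their littermates. The highest TgMsi2 array lay 0.85 below the lowest wild-type array. The mean was lower by 1.44 on the log2 scale (difference -1.44, SE 0.25), from 10.97 ± 0.14 to 9.53 ± 0.40 (SD, n = 4 each), a 2.71-fold lower signal. In the Musashi-1 line, Sec23a read 10.65, 9.77, 10.87 and 11.16 in TgMsi1 and 11.10, 10.72, 10.51 and 10.95 in Wt(TgMsi1). Those groups overlapped, and the difference was -0.21 (SE 0.25, 95% interval -0.75 to 0.34, limma adjusted p = 0.911, range over the alternatives 0.774 to 0.984). TgMsi1 replicate 2 stood low at 9.77, within the range of the TgMsi2 arrays. Without it the Musashi-1 difference was 0.073. The 4 group means thus ran from TgMsi2 (9.53) through TgMsi1 (10.62) and Wt(TgMsi1) (10.82) to Wt(TgMsi2) (10.97), and the upper 3 differed by less than the spread within TgMsi1 (SD 0.60).

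**Figure D1:**
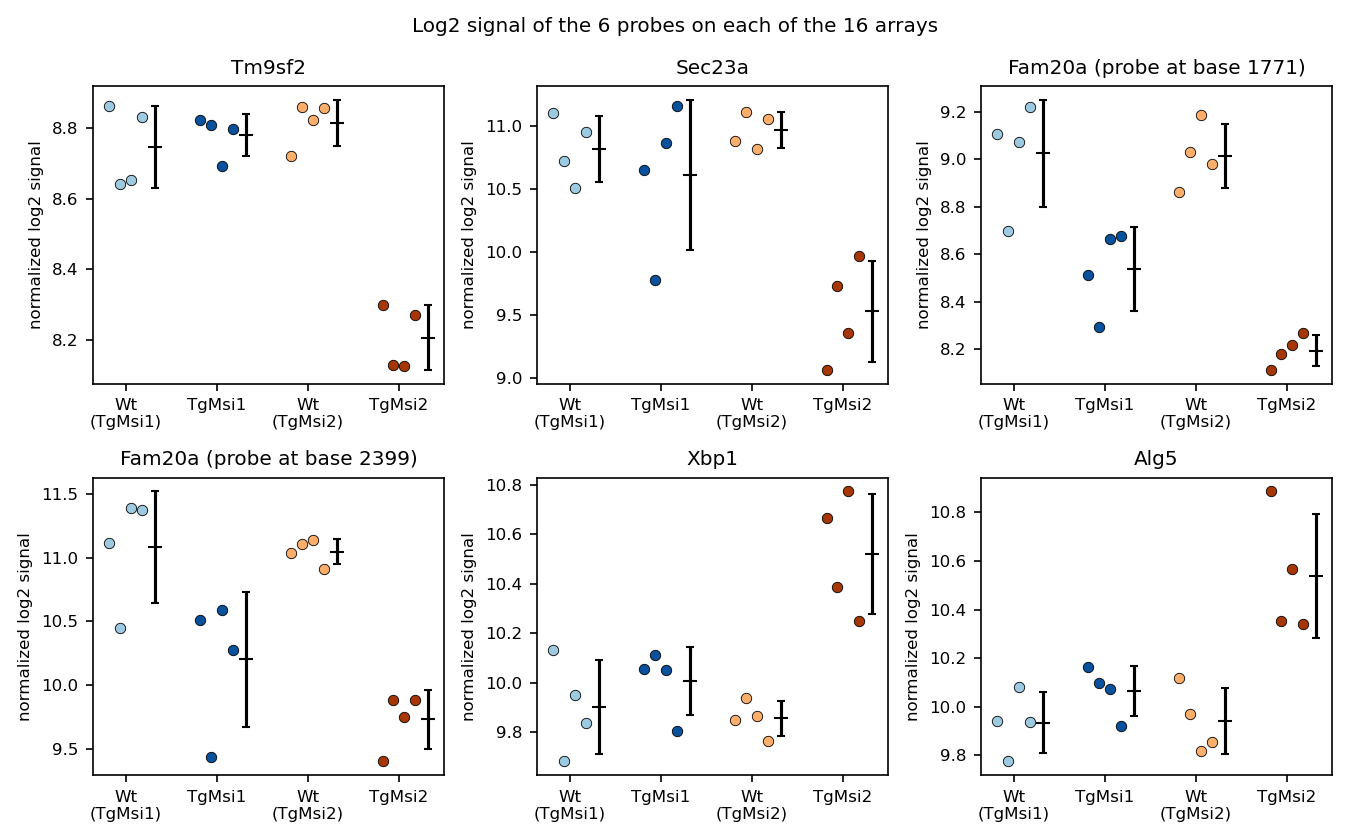
Normalized log2 signal (y axis) of each of the 6 probes on all 16 arrays, by group (x axis), with points for arrays and bars for the mean ± SD of 4 arrays. The TgMsi2 arrays lie below all Wt(TgMsi2) arrays for Tm9sf2, Sec23a and both Fam20a probes and above them for Xbp1 and Alg5, and TgMsi1 replicate 2 is the low point of its group for Sec23a (9.77) and for the Fam20a probe at base 2399 (9.43).

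Fam20a was lower in TgMsi2 at both of its probes. At base 1771 the signal was 8.11, 8.18, 8.22 and 8.27 in TgMsi2 and 8.86, 9.03, 9.19 and 8.98 in Wt(TgMsi2), a difference of -0.82 (SE 0.11) and a 1.77-fold lower signal. At base 2399 it was 9.40, 9.88, 9.75 and 9.89 in TgMsi2 and 11.03, 11.10, 11.14 and 10.91 in Wt(TgMsi2), a difference of -1.32 (SE 0.24) and a 2.49-fold lower signal. The groups did not overlap at either probe, with gaps of 0.60 and 1.03 between the nearest arrays.

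In the Musashi-1 line, whose deposited table does not hold the gene, both Fam20a probes also had lower means, but neither passed the threshold over all probes. At base 1771 the signal was 8.51, 8.29, 8.67 and 8.68 in TgMsi1 and 9.11, 8.70, 9.08 and 9.22 in Wt(TgMsi1). All 4 TgMsi1 arrays lay below all 4 wild-type arrays, by 0.021 at the nearest pair. The difference was -0.49 (SE 0.11, 95% interval -0.72 to -0.26), with a limma adjusted p of 0.211 over all probes. The two-sided exact permutation p over the 8 arrays was 0.0286, the smallest that 4 arrays against 4 allow. Wt(TgMsi1) replicate 2 decided this call. Without that array the difference was -0.60 and the limma adjusted p 0.0213, whereas over the other alternatives the adjusted p ran from 0.111 to 0.477. Without TgMsi1 replicate 2, the lowest array of its group (8.29), the difference was -0.41 (limma adjusted p = 0.394). At base 2399 the signal was 10.51, 9.43, 10.59 and 10.28 in TgMsi1 and 11.12, 10.45, 11.39 and 11.37 in Wt(TgMsi1). Here Wt(TgMsi1) replicate 2 (10.45) lay among the transgenic arrays. The difference was -0.88 (SE 0.24, 95% interval -1.39 to -0.37, limma adjusted p = 0.306, range over the alternatives 0.105 to 0.602), with an exact permutation p of 0.0857. Without TgMsi1 replicate 2 it was -0.62. Over all arrays the signal was 1.40-fold and 1.84-fold lower at the 2 probes. Both folds lie beyond the smallest of the authors' TgMsi1 table (1.2), which holds neither probe.

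The levels of Fam20a in the wild-type groups of both lines were close, with means of 9.03 ± 0.23 and 9.01 ± 0.13 at base 1771 and of 11.08 ± 0.44 and 11.05 ± 0.10 at base 2399 (SD, n = 4 each). The order of the group means was the same at both probes, with TgMsi2 lowest, TgMsi1 next and the wild-type groups highest. At base 2399 the TgMsi2 mean (9.73 ± 0.23) and the TgMsi1 mean (10.20 ± 0.53) differed by less than the SD within TgMsi1 (SD, n = 4 each). Across the 16 arrays the probes of Fam20a correlated with r = 0.957. After the group means were subtracted, r was 0.814. These points share the groups, the normalization and the transcript, and the correlation is a description.

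**Figure D2:**
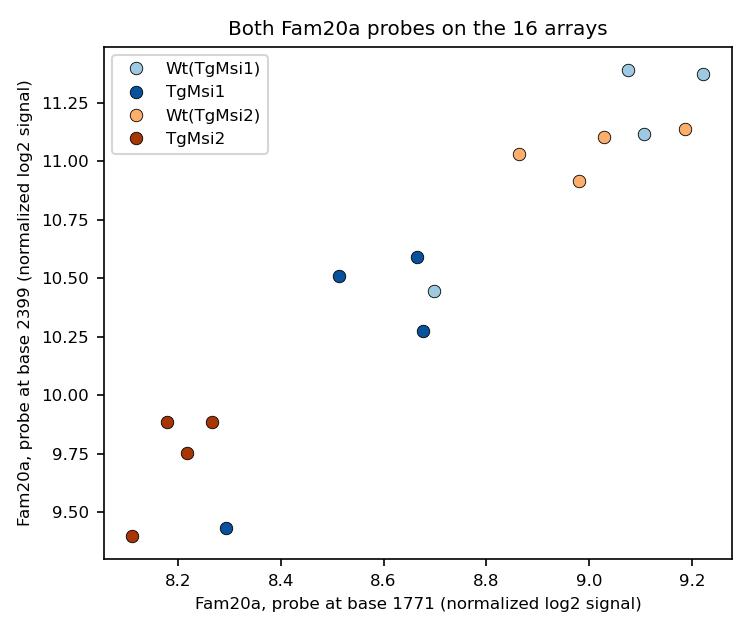
Normalized log2 signal of Fam20a at base 1771 (x axis) against base 2399 (y axis) on the 16 arrays, coloured by group. The TgMsi2 arrays lie at lower left (8.11 to 8.27 on the x axis), the TgMsi1 arrays run from 8.29 to 8.68, and the wild-type arrays from 8.70 to 9.22.

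At its named probe, Tm9sf2 was lower in TgMsi2 with little spread. It read 8.30, 8.13, 8.13 and 8.27 in TgMsi2 and 8.72, 8.86, 8.82 and 8.86 in Wt(TgMsi2), with 0.42 between the nearest arrays. The difference was -0.61 (SE 0.06), a 1.52-fold lower signal, from 8.81 ± 0.06 to 8.21 ± 0.09 (SD, n = 4 each). In the authors' deposited table its unadjusted p-value of 1.3e-07 is the smallest of all 700 probes. That p-value took part in choosing the gene and is given as a description. In TgMsi1 the gene read 8.82, 8.81, 8.69 and 8.80 and in Wt(TgMsi1) 8.86, 8.64, 8.65 and 8.83. Those groups overlapped, and the difference of 0.034 had a 95% interval of -0.091 to 0.16 (limma adjusted p = 0.942).

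Xbp1 was higher in TgMsi2. It read 10.67, 10.39, 10.78 and 10.25 in TgMsi2 and 9.85, 9.94, 9.87 and 9.77 in Wt(TgMsi2), and the lowest transgenic array lay 0.31 above the highest wild-type array. The difference was 0.67 (SE 0.11), a 1.59-fold higher signal. Its single probe does not tell the IRE1-spliced mRNA from the unspliced one. In the Musashi-1 line Xbp1 read 10.05, 10.11, 10.05 and 9.81 in TgMsi1 and 10.13, 9.68, 9.95 and 9.84 in Wt(TgMsi1). The groups overlapped, with a difference of 0.11 (95% interval -0.14 to 0.35, limma adjusted p = 0.901).

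The named probe of Alg5, the glucosyltransferase, was likewise higher in TgMsi2, with 10.89, 10.35, 10.57 and 10.34 against 10.12, 9.97, 9.82 and 9.86 in Wt(TgMsi2). The nearest arrays were 0.22 apart. The difference was 0.60 (SE 0.11), a 1.51-fold higher signal. In the Musashi-1 line it read 10.16, 10.10, 10.07 and 9.92 in TgMsi1 and 9.94, 9.77, 10.08 and 9.94 in Wt(TgMsi1). These overlapped, and the difference was 0.13 (95% interval -0.10 to 0.36, limma adjusted p = 0.862).

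Alg5 and Tm9sf2, with folds of 1.51 and 1.52, lie just inside the smallest fold of the authors' deposited TgMsi2 table (1.5). For Tm9sf2 the TgMsi1, Wt(TgMsi1) and Wt(TgMsi2) means were 8.78, 8.75 and 8.81, for Xbp1 10.01, 9.90 and 9.85, and for Alg5 10.06, 9.93 and 9.94. For each of these genes the TgMsi2 mean (8.21, 10.52 and 10.54) stood beyond all 3. The wild-type groups of the lines differed by -0.045 (Xbp1) to 0.15 (Sec23a) over the 6 probes. This value is a description, since the Wt(TgMsi2) arrays took part in choosing the genes.

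**Figure D3:**
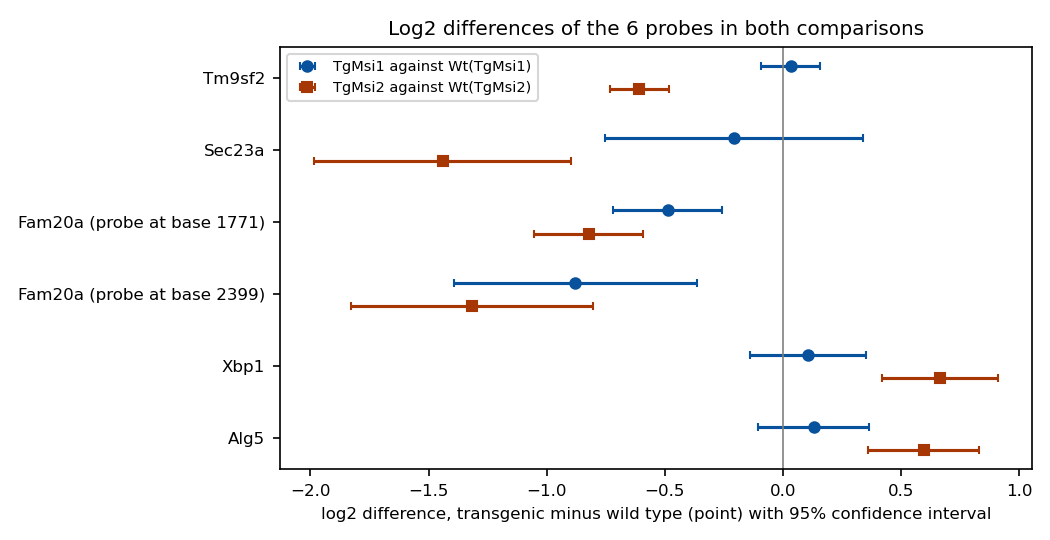
Log2 difference, transgenic minus wild type (x axis, points), with its 95% confidence interval (bars) for the 6 probes in the TgMsi1 and TgMsi2 comparisons. In TgMsi1 only the intervals of the Fam20a probes exclude 0 (-0.72 to -0.26 and -1.39 to -0.37); the TgMsi2 differences chose the genes and are shown as a description.

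In counts, 0 of the 6 probes passed limma's adjusted threshold of 0.05 in the TgMsi1 comparison, against 0.0117% of all probes, and 2 had an unadjusted p under 0.05, against 7.32% of all probes. Those 2 are the Fam20a probes, which measure 1 transcript and were lower, as were 4.12% of all probes at that p. Of the 6 probes 1 had groups that did not overlap in TgMsi1, against 4.04% of all probes (2.16% in the lower direction). In the TgMsi2 comparison all 6 lay beyond their littermates and passed the threshold, 2 higher and 4 lower, against 16% of all probes without overlap and 11.5% of all probes past the threshold (6.2% higher and 5.32% lower). That count is fixed by how the genes were chosen, and nothing is read from it. The median difference over the 6 probes was -0.087 in TgMsi1 and -0.71 in TgMsi2, beside 0.00012 and -0.0037 over all probes.

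The arrays that stood apart carried part of the TgMsi2 differences. TgMsi2 replicates 1 and 3 had the lowest Sec23a (9.06 and 9.36) and the highest Xbp1 (10.67 and 10.78) and Alg5 (10.89 and 10.57) of the series. Without them the difference of Sec23a was -1.12, that of Xbp1 0.46 and that of Alg5 0.41, while Tm9sf2 stayed at -0.61 and the Fam20a probes at -0.79 and -1.16. All 6 differences kept their direction on the remaining arrays. In that fit, which keeps 2 TgMsi2 arrays, 2 of the 6 probes passed limma's threshold (Tm9sf2 and Fam20a at base 1771), beside 201 of all 25697 probes. The kept arrays took part in choosing the genes, so the directions and this count are a description and not a test. The part of whatever sets these arrays apart in the Sec23a, Xbp1 and Alg5 values was not tested.

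**Figure D4:**
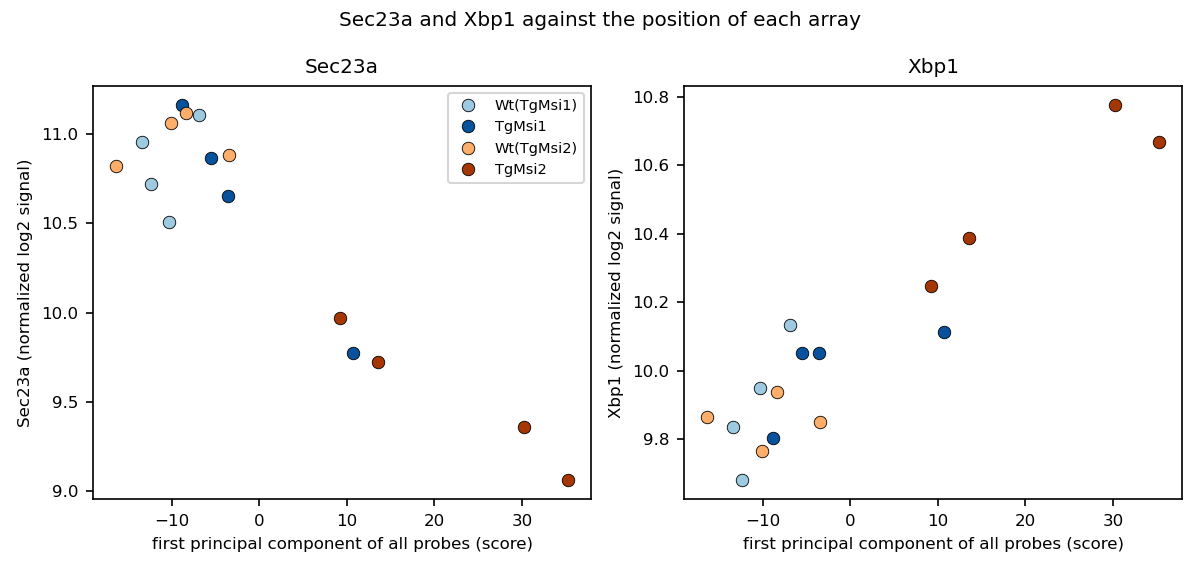
Normalized log2 signal of Sec23a (left) and Xbp1 (right) on the y axis against the score of each of the 16 arrays on the first principal component of all probes (x axis), coloured by group. TgMsi2 replicates 1 and 3 (scores 35.3 and 30.2) have the lowest Sec23a and highest Xbp1 signals. TgMsi1 replicate 2 (score 10.7) lies beside TgMsi2 replicates 2 and 4 for Sec23a. For Xbp1 it lies below them (10.11 against 10.39 and 10.25).

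Markers of other testis cell types moved in the same arrays. Their lists were chosen with earlier results of these data known, and only genes in the deposited tables carry a name, so a named marker was mostly one that the TgMsi2 table already held. Of 15 Sertoli cell markers 4 are named, and all 4 rose in TgMsi2 past limma's threshold. The log2 of their summed signal was 15.28 to 15.82 in TgMsi2 and 14.86 to 15.08 in Wt(TgMsi2). Of 10 Leydig cell markers 4 are named and all 4 rose, with summed levels of 13.94 to 14.54 against 13.19 to 13.65. The 3 named of 10 macrophage markers and the 2 named of 6 myoid markers also rose (11.48 to 11.84 against 10.36 to 10.80, and 13.10 to 13.54 against 11.85 to 12.85). Of 10 round spermatid markers 4 are named and all 4 were lower, 2 of them past the threshold. Catsper4 (-0.86) and Spaca4 (-0.72) did not pass (limma adjusted p 0.0662 and 0.0542). The summed levels were 12.33 to 13.07 against 13.35 to 13.60. Both named of 8 elongating spermatid markers fell (13.72 to 13.96 against 14.40 to 14.52). Of 7 spermatocyte markers 2 are named, and 1, the meiotic kinase gene Aurkc, fell past the threshold (difference -0.62). The brighter meiotic cyclin gene Ccna1 differed by -0.14 (limma adjusted p = 0.430). Ccna1 makes up most of their sum (11.86 to 12.23 against 12.17 to 12.37). The 1 named of 6 epididymis or fat markers, the fat hormone gene Adipoq, fell as well (8.63 to 9.15 against 10.44 to 11.11).

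In TgMsi1, where 0 markers passed, the elongating spermatid sum was 13.52 to 13.98 against 14.06 to 14.35 in Wt(TgMsi1). In that sum Gapdhs differed by -0.31 without overlap (limma adjusted p = 0.250) and Prm3 by -0.85 with overlap (limma adjusted p = 0.354). The round spermatid sum was 12.64 to 13.37 against 13.22 to 13.49. The spermatocyte sum was 11.69 to 11.97 against 11.87 to 12.30, with Aurkc at a difference of -0.29 without overlap and Ccna1 at -0.34. Adipoq differed by -1.09 and overlapped. The limma adjusted p-values of Aurkc, Ccna1 and Adipoq were 0.297 to 0.362. The Sertoli sum was 14.86 to 15.27 against 14.75 to 15.14, and the Leydig sum 13.30 to 13.76 against 12.94 to 13.57. The macrophage sum was 10.35 to 10.72 against 10.38 to 10.79, and the myoid sum 12.56 to 12.96 against 12.59 to 12.94. Among the macrophage markers Fcer1g was higher, by 0.53 with overlap (limma adjusted p = 0.373). In whole testis, fewer cells of a type and less RNA per cell cannot be told apart. The part of these shifts in the values of Sec23a, Fam20a, Tm9sf2, Xbp1 and Alg5 was not tested.

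The rest of the pathway was read through 7 lists of 173 genes, of which 155 are on the array and 13 carry a name in the deposited tables. Of 29 unfolded protein response and chaperone genes on the array, 3 are named. Besides Xbp1 these are Calr3, a testis calreticulin, and Derl2, a factor of endoplasmic reticulum degradation. Of 22 translocon and signal peptide genes, the 3 named are the translocon-associated subunits Ssr3 and Ssr4 and the signal recognition particle subunit Srp9. Of 32 N-glycosylation genes 2 are named, Alg5 and the glucosyltransferase Alg8, which uses the donor that Alg5 makes. Of 16 COPII genes 2 are named, Sec23a and Preb, the exchange factor that starts coat assembly. Of 34 TM9 and endosomal genes 2 are named, Tm9sf2 and the endosomal syntaxin Stx7. Of 10 secretory kinase genes only Fam20a is named, and of 12 COPI genes 0.

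Of these 13 genes 5 were higher and 3 lower past limma's threshold in TgMsi2, including all 5 described above, beside 6.2% of all probes higher and 5.32% lower. A gene carries a name only where a deposited table holds it, so this count says nothing of the other genes on the array. The 3 further genes stand in the TgMsi2 table, so their direction is not independent evidence. Stx7 read 10.65, 10.17, 10.63 and 9.83 in TgMsi2 and 9.71, 9.48, 9.25 and 9.46 in Wt(TgMsi2), a difference of 0.84 (SE 0.17). Ssr4 read 11.55, 11.12, 11.37 and 11.05 against 10.64, 10.55, 10.31 and 10.57, a difference of 0.76 (SE 0.14). Ssr3 read 11.33, 10.67, 11.26 and 10.61 against 10.27, 10.43, 10.14 and 10.32, a difference of 0.68 (SE 0.17). The call of Ssr3 (limma adjusted p = 0.0231) was lost when TgMsi2 replicate 1 or 3 or replicate 3 or 4 of its littermates was left out (0.0512 to 0.0832). With the replicate number as a block it was 0.0915. As for Xbp1, TgMsi2 replicates 1 and 3 were the highest arrays for all 3 genes, and without both the differences were 0.53, 0.57 and 0.36, none past the threshold (limma adjusted p 0.121 to 0.372).

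The 9 further probes were also read in the comparison whose table does not hold them. The TgMsi2 table holds 700 probes where 706 pass its limits of fold and p. Absence from it thus mostly selects for a small fold or a weak p. The TgMsi1 table holds 246 probes where 500 pass, so absence from it does not imply a small fold or a weak p. The values of both comparisons are given as a description. In TgMsi1, Stx7, Ssr3 and Ssr4 had differences of 0.16 to 0.39 (limma adjusted p 0.529 to 0.899), and 1 of the 3 had an unadjusted p under 0.05 (7.32% of all probes). In TgMsi2, the 6 probes of Alg8, Srp9, Preb, Calr3 and Derl2 had differences of -0.12 to 0.31 (limma adjusted p 0.104 to 0.879), and 2 of the 6 had an unadjusted p under 0.05 (24.5% of all probes). Of these, Calr3 (0.28) passed when Wt(TgMsi1) replicate 1 was left out of the fit (limma adjusted p = 0.0374, range over its alternatives 0.0374 to 0.299). Preb had a TgMsi2 difference of -0.12 (95% interval -0.32 to 0.087) and Alg8 one of 0.13 (95% interval -0.028 to 0.29). In TgMsi1, whose table holds them, Alg8 read 9.30, 9.11, 9.26 and 9.17 against 9.56, 9.53, 9.49 and 9.41 in Wt(TgMsi1), a difference of -0.28 (SE 0.08) without overlap. Preb differed by -0.32 (SE 0.10) and overlapped. The probes of Srp9 disagreed in TgMsi2, with differences of 0.31 and -0.12.

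**Figure D5:**
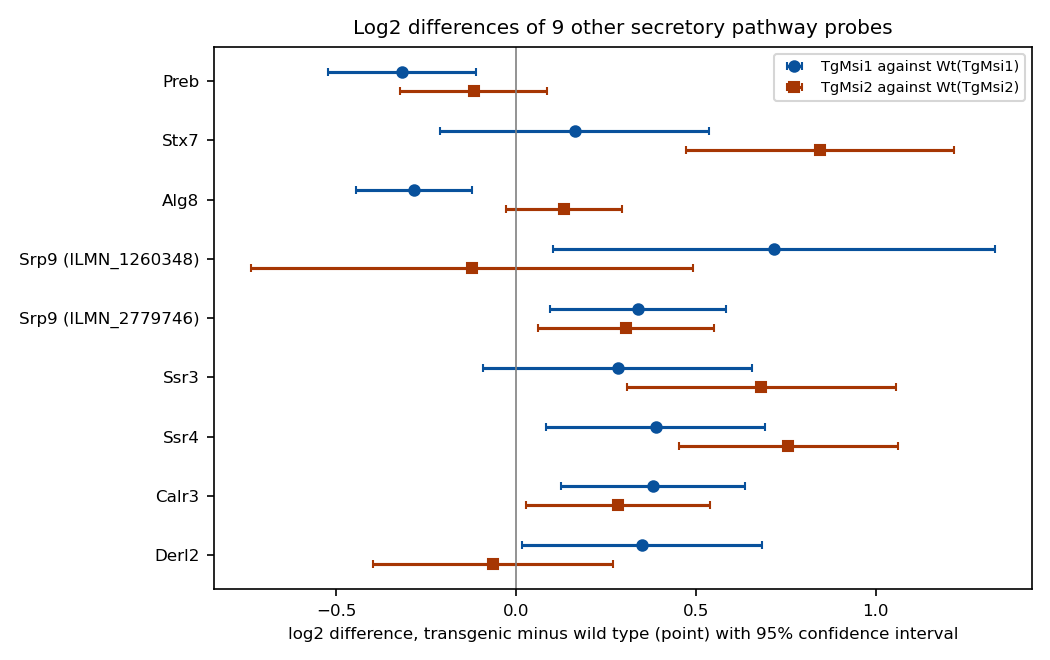
Log2 difference, transgenic minus wild type (x axis, points), with its 95% confidence interval (bars) for 9 probes of 8 other secretory pathway genes in both comparisons. Stx7, Ssr4 and Ssr3 have TgMsi2 differences of 0.84, 0.76 and 0.68, and the remaining TgMsi2 differences lie between -0.12 and 0.31.

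For each probe the named genes with the most similar pattern were taken by Pearson's r over the 16 arrays. These arrays share the groups and the normalization, so r mostly follows the group means, and it is a description. Closest to Sec23a were Cert1 (Col4a3bp in the table, r = 0.963), which carries ceramide from the endoplasmic reticulum to the Golgi, Lrrc18 (0.959) and Deup1 (Ccdc67 in the table, 0.956). Their TgMsi2 differences were -0.99, -0.72 and -0.67. Closest to Fam20a at base 1771 were the nucleoporin gene Nupl1 (r = 0.960), the testis poly(A)-binding protein gene Pabpc2 (0.958) and the nitric oxide synthase gene Nos3 (0.952). Like Fam20a these had negative TgMsi1 differences, of -0.28, -0.44 and -0.42. At base 2399 the closest were Gdf9 (r = 0.970), a growth factor gene best known from oocytes, Rnf24 (0.962) and Ntm (Hnt in the table, 0.958), with TgMsi1 differences of -0.66, -0.50 and -0.57. The probes of Fam20a thus shared 0 of their 3 closest genes.

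The closest genes to Xbp1 were the ceramide synthesis enzyme Degs1 (r = 0.968), the endosomal membrane protein gene Litaf (0.966) and the ecto-nucleotidase gene Nt5e (0.962), with TgMsi2 differences of 0.78, 1.02 and 1.05. Closest to Alg5 were the mitochondrial ADP/ATP carrier gene Slc25a5 (r = 0.977), Chchd10 (0.975) and the ribosomal protein gene Rpl36a (0.971), with TgMsi2 differences of 0.81, 0.83 and 0.85. Tm9sf2 had lower values of r. Its closest genes were the propionyl-CoA carboxylase gene Pcca (0.896), Zcchc13 (Cnbp2 in the table, 0.887) and the deubiquitinase gene Usp1 (0.877), with TgMsi2 differences of -1.15, -0.83 and -0.78. Among the members themselves, Xbp1 and Alg5 correlated with r = 0.914 over the 16 arrays and 0.659 after the group means were subtracted. Sec23a and Xbp1 gave -0.865 and -0.469, and Tm9sf2 and Xbp1 -0.799 and 0.134.

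Because Xbp1 is a transcription factor, the promoters of all 5 genes were read for letters known from targets of the unfolded protein response. RefSeq windows of 300 bases (GRCm38.p6, 250 before and 50 after the gene start) were searched on both strands, and the motifs were chosen after the sequences were seen. The core of the unfolded protein response element, TGACGTGG, is in the Sec23a window and in 0 of the other 4, beside 0.676% of 32851 windows of all genes. It begins at base 7 of the 50 bases counted after the gene start. The window is printed up to the end of these letters, in capitals, because it holds the 1 match found (chr12:59012004-59012267, minus strand, 5′ to 3′).
Sec23a promoter: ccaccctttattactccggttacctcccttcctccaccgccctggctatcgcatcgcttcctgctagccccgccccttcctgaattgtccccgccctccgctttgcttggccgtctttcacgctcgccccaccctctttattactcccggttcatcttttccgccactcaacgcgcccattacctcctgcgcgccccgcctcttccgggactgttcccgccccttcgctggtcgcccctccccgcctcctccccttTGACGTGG
The endoplasmic reticulum stress element (in 0.119% of all windows), its second form (0.0365%) and the cAMP response element TGACGTCA (1.79%) are in 0 of the 5 windows. A match is a description of letters, not a site at which a factor was measured.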

How the data were processed

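Log2 values of 25697 probes on 16 arrays were taken from the deposited series matrix. GenomeStudio is named, with no role, in the submitters' processing notes, and how the log2 values were normalized goes unstated in the sources used here. The sorted columns differ by at most 0.006, as after quantile normalization. The authors' deposited tables (246 and 700 probes) give an unadjusted p-value, a ratio and a signed fold score per probe, per the file headers, and a gene symbol for 932 probes in all. A table of unnormalized values was used only for its gene symbols and its probe number (another unit, deposited with no sample), and its 128 per-array columns, which no label ties to a sample, were not used.

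Limma 3.58.1 under R 4.3.3 was fitted to all 16 arrays with 1 mean per group, each transgenic group was set against its own littermates, and p-values were adjusted by Benjamini-Hochberg over 25697 probes (threshold 0.05). The fit was tested on simulated data. Exact permutation tests over the 8 arrays of the Musashi-1 line are two-sided. The named genes are the members, the pathway genes with a probe in the tables, and the 3 genes nearest to each probe. The members, lists and markers were chosen with earlier results of these data known. Alternatives were the 8 arrays of a line alone, an intensity trend with robust variance, array weights, the replicate number as a block, only probes with a mean above 8, and arrays left out.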

Additional observations from a re-analysis of the deposited data

How the results depend on the processing

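The number of probes called in TgMsi1 was 3. It was 0 from the 8 arrays of the line, 7 when the variance followed an intensity trend robustly, 5 with array weights, 0 with the replicate block, 8 over probes with a mean log2 above 8, 9 without both TgMsi2 replicates 1 and 3, and 0 to 30 with 1 array left out, the 30 without Wt(TgMsi1) replicate 2. With the 8 arrays and with the block, limma gave 1791 and 2285 probes an unadjusted p under 0.05. The causes were not tested. The number of member probes called in TgMsi1 was 0, and 0 to 1 with 1 array left out. The 1 is Fam20a without Wt(TgMsi1) replicate 2. The count over all pathway probes was likewise 0, and 0 to 1. In TgMsi2, 2960 probes were called, 1305 to 3530 with 1 array left out (1305 and 1433 without TgMsi2 replicates 1 and 3, 1799 and 1781 without Wt(TgMsi2) replicates 3 and 4), and 201 without both TgMsi2 replicates 1 and 3. The 6 member calls stayed at 6 in every setting except that last one, where they were 2. The 9 pathway probe calls ran from 8 to 10 with 1 array left out and were 2 in that last setting, which has fewer arrays. The members were chosen from this contrast, so their calls in it are a description.

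The replicate number shared by the groups was not taken to pair the arrays, since no label says that it does and not every same-numbered pair had deviations that clearly correlated (0.024 to 0.438 in the Musashi-1 line and -0.292 to 0.337 in the Musashi-2 line). Of 8 arrays in each line, 4 and 3 correlated best with their own number. With the replicate block, 2032 probes were called in TgMsi2, the member calls were 6 and 0, and the pathway calls were 8 and 0. In TgMsi1 the Fam20a probes had unadjusted p-values of 7.56e-05 and 0.000101 with the block, and a limma adjusted p of 0.141 each. Ssr3 lost its TgMsi2 call with the block (limma adjusted p 0.0915), and when any 1 of 4 arrays was left out, replicates 1 and 3 of TgMsi2 and replicates 3 and 4 of Wt(TgMsi2) (0.0512 to 0.0832). Small differences changed sign when 1 array was left out. The TgMsi1 difference of Tm9sf2 was -0.0015 without Wt(TgMsi1) replicate 2 (range -0.0015 to 0.072), and that of Sec23a was 0.073 without TgMsi1 replicate 2 (range -0.39 to 0.073). The TgMsi2 difference of Derl2 was 0.012 without TgMsi2 replicate 3 (range -0.13 to 0.012) and 0.086 without both TgMsi2 replicates 1 and 3. Of 132 values of the members in each comparison over the alternatives, 129 in TgMsi1 and 128 in TgMsi2 kept their direction and their side of the threshold.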
